A study of Mus musculus with 8 samples.

Results

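Sst-type MGE interneurons were the nuclei of mouse cortex with at least 3 UMIs (unique molecular identifiers, 1 per captured RNA molecule) of Sst among nuclei with transcripts of the medial ganglionic eminence (MGE) lineage. These nuclei were chosen by their UMI counts of 9 genes. First, barcodes with fewer than 500 genes or over 2% of UMIs from mitochondria were dropped. The gate then asked for at least 2 UMIs of Gad1 and Gad2 together, at most 1 of Slc17a7, at least 3 of Lhx6, Nxph1 and Sox6 together, at least 3 of Sst, and at most 1 each of Pvalb and Vip. In all, 511 nuclei passed, of 77185 nuclei kept and 97772 barcodes in the files. The steps before Sst passed 4279 nuclei (the MGE gate). The values of the 9 genes in the passing nuclei describe the choice and are no finding.

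Somatostatin interneurons are GABAergic cells born in the MGE. Lhx6 sets their lineage, Sox6 and Satb1 act after it in their maturation, and the neuropeptide somatostatin is released beside GABA. Many are Martinotti cells, whose axons climb to layer 1 and inhibit the distal dendrites of pyramidal neurons. Elfn1, a postsynaptic adhesion protein of these cells, recruits metabotropic glutamate receptors to the excitatory terminals that contact them, and those synapses facilitate.

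The samples were 8 cortices of C57BL/6J mice at postnatal day 25, 4 wild type (WT) and 4 heterozygous for Chd8 (Chd8het, Chd8+/-), each with 2 males and 2 females, and each animal gave 1 library of single-nucleus RNA. Chd8 encodes a chromatin remodeller and is a high-confidence autism gene. The medial cortex had been removed, and the animals came as 4 pairs that shared a litter and a sex. Within each sex and genotype, replicate 1 was single-indexed and replicate 2 dual-indexed. The allele, and so the cells in which Chd8 is lost, is not described in the sources used here.

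The kept nuclei held 68011920 to 94587486 UMIs per library, and the Sst-type nuclei held 434765 to 887947. The libraries gave 76, 45, 58 and 87 Sst-type nuclei in WT, listed as males 1 and 2 and then females 1 and 2, and 76, 61, 66 and 42 in Chd8het, and this order is used throughout. The 2 libraries of a sex and genotype, which differ in animal and index type, were no copies of each other (chi-square per degree of freedom of their counts 2.39 to 3.57). Any 2 libraries shared 16 to 34 kept barcodes. The 6 genes called for sex among 7794 (0.077%) were Xist, Tsix, Kdm5d, Eif2s3y, Uty and Ddx3y (edgeR quasi-likelihood, adjusted p under 0.05).

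The gene that gives the cells their name lies on chromosome 16, minus strand, with a GENCODE M21 model from 23889573 to 23890958 (GRCm38). Its promoter is a textbook case of control by cyclic AMP, through the palindrome that binds CREB. The 30 bases around that element are shown because it is the best known regulatory sequence of the gene that defines the cells, and the element is in capitals. They come from the RefSeq promoter table (GRCm38.p6, chr16:23890874-23890903, minus strand, 5′ to 3′).
Sst: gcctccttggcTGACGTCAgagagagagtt
The element TGACGTCA, which reads the same on both strands, ends 41 bases before the RefSeq start at 23890844. The GENCODE model used for the coordinates starts 114 bases further upstream and so contains it. Among its 32851 entries, 508 (1.55%) held the same 8 letters within 250 bases before a start, and the entries of Cort, Npy, Elfn1, Lhx6, Nxph1, Satb1, Gad1, Gad2, Vip, Pvalb and Tac1 did not.

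Sst itself varied widely between nuclei and libraries. The median Sst-type nucleus had 4 to 7 Sst UMIs, and the nucleus with the most had 198, in WT male 1. Nuclei with at least 20 Sst UMIs numbered 30 of 511 (5.87%) and carried 32.3% of the 4432 Sst UMIs. Levels below are counts per 1000000 UMIs (CPM) of the nuclei of a kind summed within a library. Sst stood at 1377, 587, 1113 and 812 CPM in WT and at 856, 762, 989 and 532 CPM in Chd8het. The genotypes overlapped, and WT held the highest library and Chd8het the lowest. Without the richest nucleus of each library, Sst was 1070.5, 561, 1004 and 693 CPM in WT and 799, 708, 917 and 425 CPM in Chd8het.

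Index type moved with depth and with Sst. The median Sst UMIs per nucleus averaged 6 ± 0.707 over the 4 single-indexed libraries and 4.5 ± 0.577 over the 4 with dual indexes (mean ± SD). These values are given with no test, since the gate admits a nucleus by its Sst UMIs. Depth, which the gate did not set directly, was 8194 ± 212 UMIs per Sst-type nucleus for single indexes against 9860.2 ± 835 for dual indexes (exact permutation p 0.0286, two-sided, the smallest that 4 against 4 allow). In the edgeR model of sex, index type and genotype, 209 of 8361 genes (2.5%) were called for index type, which coincides with replicate number.

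Sst UMIs were also found in nuclei that should lack the gene. Of excitatory nuclei (at least 3 UMIs of Slc17a7 and at most 1 of Gad1 and Gad2 together), 5.43% to 16.5% held a Sst UMI, at median depths of 9871 to 13569 UMIs. Thinned to 2000 UMIs per nucleus, the shares with a Sst UMI were 0.995% to 4.46% of excitatory nuclei and 65.5% to 84.5% of Sst-type nuclei, of which 510 of 511 were deep enough. Pooled over libraries, Sst stood at 10.4 CPM in excitatory nuclei and 890.4 CPM in Sst-type nuclei. The 107 nuclei just inside the threshold, with 3 Sst UMIs, had 1043, 146 and 1403 CPM of Grin3a, Elfn1 and Erbb4. The 156 nuclei just outside it, with 2 Sst UMIs, had 865, 115 and 2844 CPM of the same genes. Nuclei of the MGE gate with at most 1 UMI each of Sst and Vip (3558 nuclei, called the other MGE-gate nuclei below) had 183, 20.3 and 9421 CPM.

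The label was checked against Grin3a and Satb1, the markers that the gate had not used. Grin3a, an NMDA receptor subunit that lowers calcium entry, ranged from 935 to 1379 CPM with a median of 1190 in Sst-type nuclei. It ranged from 112 to 255 CPM in the other MGE-gate nuclei, from 76.6 to 164 CPM in Vip-type nuclei and from 19.6 to 45.1 CPM in excitatory nuclei. Satb1, a chromatin organiser required by somatostatin cells, ranged from 282 to 456 CPM in Sst-type nuclei, against 159.8 to 236, 32.2 to 76.5 and 104 to 149 CPM in the same order. Both were above the other MGE-gate nuclei without overlap between the 8 libraries of each. In Pvalb-type nuclei Grin3a was at 0 to 36.1 CPM and Satb1 at 151 to 360.4 CPM, and the latter overlapped Sst-type nuclei. Lhx6, which the gate used, was at 56.5 to 101 CPM. Slc17a7, the vesicular glutamate transporter of cortical excitatory neurons, was at 17.8 to 37.8 CPM in Sst-type nuclei, 21.7 to 40.8 CPM in the other MGE-gate nuclei and 268 to 371 CPM in excitatory nuclei.

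The other MGE-gate nuclei were no pure set of parvalbumin cells. Nxph1 stood at 1234 to 3698 CPM in Lamp5-type nuclei (gated on at least 3 Lamp5 UMIs, with no MGE step) and is 1 of the 3 lineage genes that the MGE gate sums; how many Lamp5-type nuclei passed that gate was not counted. Adarb2, a marker of interneurons of caudal origin, was at 1695 to 2531 CPM in the other MGE-gate nuclei and 21.7 to 347 CPM in Sst-type nuclei. The Pvalb-type gate (at least 3 Pvalb UMIs) held 63 nuclei in all, 1 to 13 per library. Levels are therefore described mainly against the other MGE-gate nuclei. Gates on the same nuclei are compared here, so these levels are a description and no test was made.

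**Figure D1:**
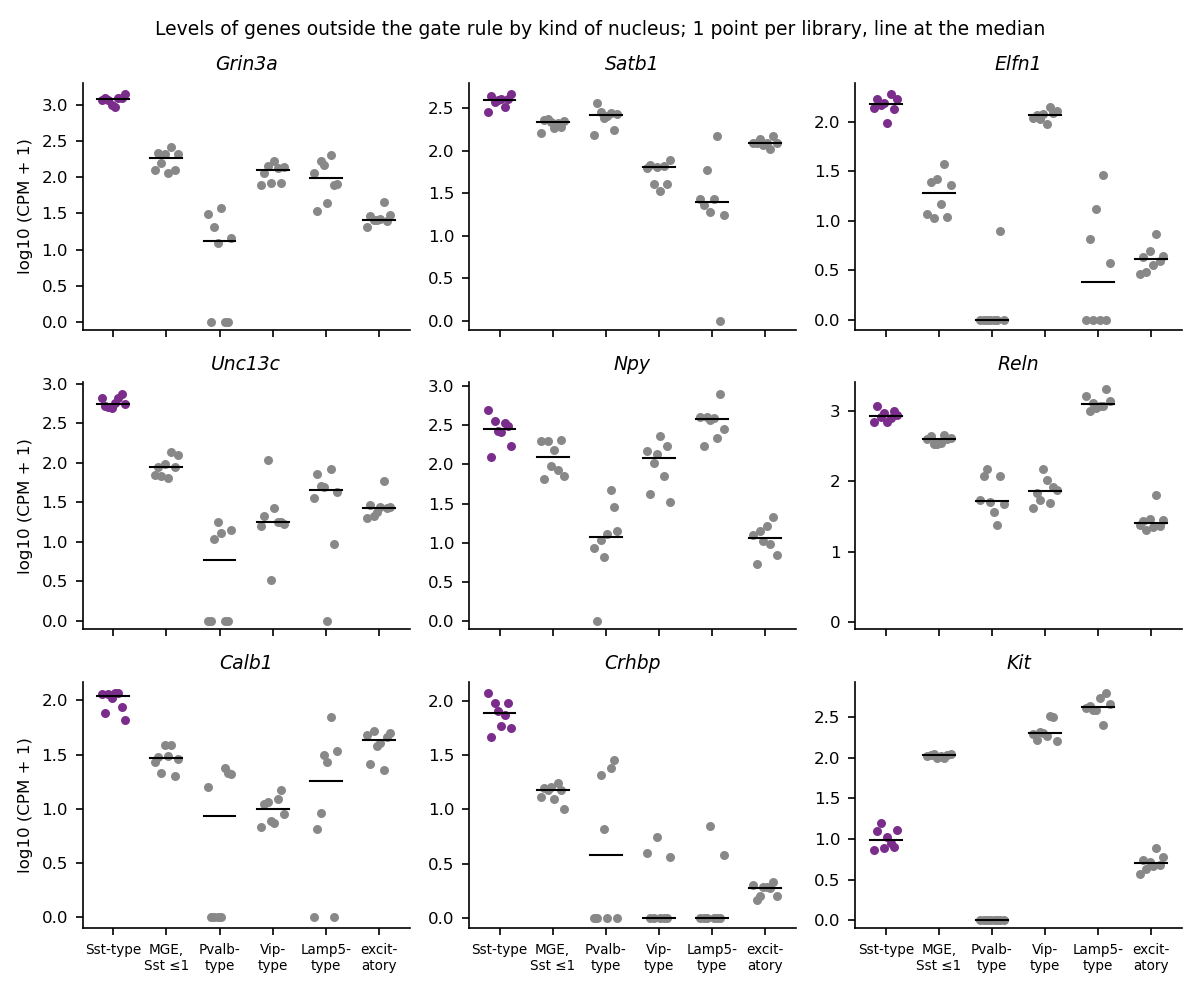
Level of 9 genes that the gate did not use, as log10 (CPM + 1) on the vertical axis, in 6 kinds of nuclei; each point is 1 of 8 libraries and the line is their median. Grin3a, Satb1, Elfn1, Unc13c, Npy, Reln, Calb1 and Crhbp sit higher in Sst-type nuclei than in the other MGE-gate nuclei in 8 of 8 libraries, and Kit sits lower.

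Of 9578 genes with a mean of at least 10 CPM in either kind, 334 (3.49%) were higher in Sst-type nuclei than in the other MGE-gate nuclei with no overlap between the 8 libraries of each, and 573 (5.98%) were lower. Of the 36 identity genes of somatostatin cells outside the gate, 21 reached that level, 11 were above and 4 below without overlap, and their median log2 difference was 1.20 against -0.05 for all genes. The list was drawn up for these cells, so its direction is no separate finding. Elfn1 was at 96.0 to 189 CPM against 9.65 to 36.6 CPM in the other MGE-gate nuclei, and its range overlapped that of Vip-type nuclei (93.5 to 139 CPM). Unc13c, a vesicle priming protein, was at 498 to 745 CPM against 63.3 to 134 CPM and at 2.28 to 106 CPM in Vip-type nuclei.

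Among peptides and their partners, Npy (neuropeptide Y) ranged from 122 to 487 CPM in Sst-type nuclei and from 170.3 to 794 CPM in Lamp5-type nuclei, and Sst-type nuclei were the higher in 2 of 8 libraries. In the other MGE-gate nuclei Npy was at 64.2 to 203 CPM. Sst-type nuclei were the higher of these 2 kinds in 8 of 8 libraries, although the ranges overlapped. Cort, the related peptide cortistatin, was at 11.5 to 40.7 CPM against 5.29 to 15.6 CPM in the other MGE-gate nuclei, higher in 8 of 8 libraries although the ranges overlapped. Crhbp, which binds corticotropin-releasing hormone, was at 46.0 to 119 CPM against 9.20 to 16.8 CPM. Pdyn, the dynorphin precursor, was at 18.2 to 72.0 CPM against 2.17 to 7.06 CPM. Crh and Penk were at 1.98 to 14.1 and 0 to 18.2 CPM in Sst-type nuclei and at 50.4 to 252 and 50.4 to 149 CPM in Vip-type nuclei. Tac1, the substance P precursor of many parvalbumin cells, was at 0 to 5.63 CPM against 13.5 to 26.4 CPM.

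Calb1 (calbindin, a calcium buffer of many Martinotti cells) was at 65.2 to 116 CPM against 19.1 to 38.2 CPM in the other MGE-gate nuclei. Reln, the secreted glycoprotein reelin, was at 695 to 1184 CPM against 335 to 460.0 CPM, and at 999.7 to 2043 CPM in Lamp5-type nuclei. Nos1, the neuronal nitric oxide synthase, was at 94.6 to 195 CPM against 15.3 to 49.6 CPM. These 3 genes were thus above the other MGE-gate nuclei without overlap. Kit, a receptor tyrosine kinase, was at 6.26 to 14.6 CPM against 97.7 to 111 CPM in the other MGE-gate nuclei and at 249.6 to 625 CPM in Lamp5-type nuclei.

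Ranked by size, the genes furthest above the other MGE-gate nuclei were Shisa6, Lama4, Gm12296, Elfn1 and Grin3a. Shisa6, an auxiliary subunit of AMPA receptors, was at 375 to 665 CPM against 33.1 to 108 CPM (median log2 difference 2.96). Gm12296 is annotated over the same locus, and reads of overlapping genes could not be told apart. Lama4, a laminin chain, was at 90.1 to 171 CPM against 14.6 to 28.2 CPM. Synpr, synaptoporin of synaptic vesicles, was at 1146 to 1606 CPM against 145 to 277 CPM. Npas1, a transcription factor, was at 55.5 to 87.5 CPM against 5.92 to 17.0 CPM. Trpc6, a cation channel, was at 165 to 397 CPM against 22.1 to 60.2 CPM. Furthest below were Pde11a (1.56 to 43.7 CPM against 144 to 227 CPM) and Adarb2. Syt2, a synaptotagmin of fast-releasing terminals, was at 1.82 to 19.8 CPM against 91.0 to 117 CPM, and was also among the genes furthest below Pvalb-type nuclei, with a median log2 difference of -4.24.

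Of 24 glutamate receptor genes at that level, 7 were higher without overlap and 2 lower, beside 3.49% and 5.98% of all genes (median log2 difference 0.30). Grik3, a kainate receptor subunit, was at 266 to 489.9 CPM against 59.9 to 143 CPM in the other MGE-gate nuclei. Its auxiliary protein Neto1 was at 645 to 909 CPM against 255 to 346 CPM. Grm7, a metabotropic glutamate receptor, was at 1902 to 2602 CPM against 529.6 to 992 CPM, and at 2257 to 2954 CPM in Vip-type nuclei. Gria4, an AMPA receptor subunit, was lower at 994 to 1319.7 CPM against 1537 to 1845 CPM.

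Of 14 GABA-A and GABA-B receptor genes, 7 were lower without overlap and 1 higher, beside 5.98% and 3.49% of all genes, and their median log2 difference was -0.84. Gabrd, the extrasynaptic delta subunit, was at 5.93 to 25.8 CPM against 53.4 to 91.2 CPM, and Gabrg3 at 526 to 890.1 CPM against 2422 to 2721 CPM. Gabra2 was the exception, at 167 to 348 CPM against 73.1 to 151 CPM. Among 8 GABA handling genes outside the gate, 0 were higher without overlap.

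Of 25 potassium and HCN channel genes, 4 were higher and 9 lower without overlap, where all genes gave 3.49% and 5.98%. Kcnc1, a Kv3 subunit of fast-spiking cells, was at 76.5 to 129 CPM against 221 to 331 CPM in the other MGE-gate nuclei. Kcnd2, a Kv4 subunit of A-type current, was higher at 2439 to 3270.4 CPM against 1621 to 1869 CPM. Of 22 sodium and calcium channel genes, 5 were higher and 6 lower, against the same shares. Cacna2d3, an auxiliary calcium channel subunit, was at 1349 to 1939 CPM against 285 to 497 CPM, and the sodium channel gene Scn9a at 48.2 to 115 CPM against 258 to 461 CPM.

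Of 5 acetylcholine receptor genes at that level, 2 were higher without overlap and 0 lower (3.49% and 5.98% of all genes). These were the muscarinic receptors Chrm2, at 124 to 272 CPM against 53.9 to 104 CPM, and Chrm3, at 1437 to 2004 CPM against 477 to 666 CPM. Chrna2, a nicotinic subunit known from layer 5 Martinotti cells, was at 0 to 6.76 CPM. Of 5 somatostatin receptor genes, 0 reached a mean of 10 CPM: Sstr1 was at 1.56 to 11.5 CPM, Sstr2 at 0 to 10.9 and Sstr3 at 0 to 2.30, and Sstr4 and Sstr5 were at 0 in all 8 libraries. Of 13 genes of peptide processing and dense-core vesicles, Pam, which amidates peptides, was higher (755 to 1219 CPM against 597 to 730.4 CPM), as was Vgf (65.2 to 142 CPM against 18.0 to 40.3 CPM), and Cadps, a priming factor of those vesicles, was lower (1188 to 1359 CPM against 1509 to 1704 CPM).

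Subtypes of somatostatin cells were sought with 6 gates on 1 gene each, at least 2 UMIs. The Chodl gate held 11 nuclei (2.15% of 511), Hpse 27 (5.28%), Crhr2 9 (1.76%), Calb2 4 (0.783%), Th 2 (0.391%) and Myh8 0. No nucleus passed 2 of the gates. Chodl marks the long-range somatostatin cells that make nitric oxide, and its 11 nuclei came from 5 libraries. Pooled, they had 1490.3 CPM of Nos1 against 97.7 CPM in the remaining Sst-type nuclei, 1084 CPM of Npy against 274 CPM, and 542 CPM of Tacr1 against 28.2 CPM (Tacr1 is the substance P receptor), each higher in 5 of 5 libraries. Reln was at 16.9 CPM there, from 2 UMIs, against 888 CPM. Ndst4, a heparan sulfate enzyme, led the genes by fold with 1050 CPM against 42.0 CPM.

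The Hpse nuclei came from 6 libraries and had 1695 CPM of Reln against 812 CPM in the remaining Sst-type nuclei, 121 CPM of Npy against 304 CPM, and no Tacr1 UMI. The Crhr2 nuclei, from 4 libraries, had 455 CPM of Npy against 289.8 CPM and 525 CPM of Grin3a against 1155 CPM. The gates chose these nuclei on single genes and the sums rest on few nuclei, so they are given with no test. Chodl nuclei were 1.23 ± 1.43% of Sst-type nuclei in WT and 2.53 ± 2.10% in Chd8het (mean ± SD, n = 4 each), which gave an exact permutation p of 0.4 (two-sided, adjusted p 1 over 6 gates). Hpse nuclei were 4.42 ± 4.99% of Sst-type nuclei in WT and 4.93 ± 3.78% in Chd8het, with p 0.886 by the same exact test (adjusted p 1). With 4 against 4 libraries no single gate could pass after adjustment over 6.

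The first genotype comparison was how common Sst-type nuclei were. They made up, in percent of kept nuclei, 0.842, 0.577, 0.547 and 0.836 in WT and 0.703, 0.613, 0.649 and 0.499 in Chd8het. The groups overlapped, with means of 0.700 ± 0.160% and 0.616 ± 0.0864% (SD, n = 4 each; exact permutation p 0.400, two-sided, adjusted p 0.543 over 2 shares). In percent of the MGE gate they made up 15.8, 9.26, 12.2 and 12.8 in WT and 13.7, 10.4, 12.8 and 8.37 in Chd8het. The means were 12.5 ± 2.697% and 11.3 ± 2.40% (n = 4 each; exact permutation p 0.543, adjusted p 0.543), and Chd8het was higher in 2 of 4 pairs. Within single-indexed libraries the difference, Chd8het minus WT, was -0.754 percentage points and within dual-indexed libraries -1.63 points. A nucleus enters the gate only with 3 Sst UMIs, so fewer cells and less Sst RNA per nucleus cannot be told apart here.

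**Figure D2:**
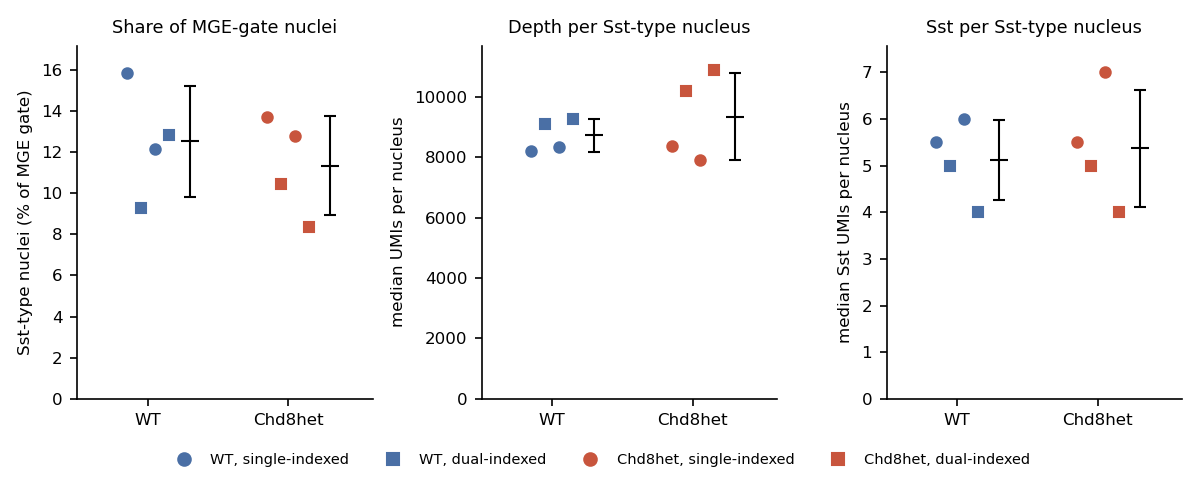
Sst-type nuclei as a percent of the MGE gate, median UMIs per Sst-type nucleus and median Sst UMIs per Sst-type nucleus by genotype; points are libraries (circles single-indexed, squares dual-indexed) and bars are mean ± SD of 4. The genotypes overlap in all 3 panels, while within the depth panel the squares lie above the circles.

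The second comparison was of genes between genotypes inside Sst-type nuclei. Chd8 itself (chromosome 14, 52198151 to 52257780) was at 103, 101, 65.6 and 94.6 CPM in WT and 97.4, 99.95, 75.7 and 73.1 CPM in Chd8het. Its level overlapped between genotypes, the log2 change (Chd8het minus WT) being -0.11 (SE 0.17, adjusted p 0.9998) by edgeR quasi-likelihood, and rested on 36 to 84 UMIs per library. Counts from the 3′ end of an undescribed allele need not show its loss, so Chd8 levels here are no check on genotype. In the model of sex and genotype, edgeR called 0 of 7794 genes (0.0%) at adjusted p under 0.05. An unadjusted p under 0.05 was reached by 326 genes (4.18%), 184 higher (2.36%) and 142 lower (1.82%) in Chd8het. DESeq2 called 0, with 113 genes (1.45%) at an unadjusted p under 0.05.

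With a block for each pair of libraries that share sex and replicate number, in place of sex, 17 of 8361 genes (0.203%) were called, 13 higher (0.155%) and 4 lower (0.0478%). The 13 were St18, Pard3b, Dock10, Cdh19, Prr5l, Shld1, Ntng1, Gab1, Myo1e, Mobp, Ptprk, Sec14l5 and Htr2c, and the 4 were Gm48749, Adarb2, Gm26854 and Pde10a. Cdh19, Prr5l, Gab1 and Myo1e had under 10 UMIs in every WT library, and Shld1 in all but WT female 2, with 11. The count filter scales its minimum of 10 to library size. All of these genes passed it through Chd8het libraries alone, so their calls are no support. Values "with the block" below come from the model with this block. Log2 changes given below for other kinds of nuclei come from the model of sex and genotype. The model of sex and genotype without a count filter called 29 of 20892 genes, among them the same 17. With index type beside sex in the model, Gm26854 was the single gene called (1 of 8361, 0.012%). Leaving out 1 pair at a time, the block called 4, 2, 24 and 4 genes without male 1, male 2, female 1 and female 2. Adarb2 was called in all 4 of these, Gm26854 in all but that without male 2, and Pde10a without male 1 or female 1. Dock10 was called only without male 1, and Gm48749 and Myo1e only without female 2. Ptprk, Ntng1, Htr2c, Mobp, St18, Cdh19, Prr5l, Gab1 and Sec14l5 were called only without female 1, and Pard3b and Shld1 in none of the 4. With predicted doublets removed Gm26854 and Pde10a were the 2 genes called. Several of the 17 are genes of other cell types, whose RNA was uneven across libraries.

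Over 8 oligodendrocyte markers, among them Mbp, Mog and Mobp of myelin and St18 and Prr5l, Sst-type nuclei summed to 205, 216, 319 and 238 CPM in WT and 769.7, 348, 170.3 and 826 CPM in Chd8het. Chd8het male 1 and female 2 stood above the other 6 libraries, and Chd8het female 1 was the lowest. All 8 markers had a UMI in 6 libraries, and Prr5l was at 0 in WT male 2 and Chd8het female 1. In Chd8het female 2 the top 2 nuclei held 158 and 156 marker UMIs, and in Chd8het male 1 193 and 88, while the median nucleus of each held 2. Of the 6 markers tested in the model of sex and genotype, 6 had a log2 change above 0 (median 1.21 against 0.0025 for all genes), 5 had an unadjusted p under 0.05 (2.36% of all genes, higher) and 0 were called. With the block, Mobp, St18 and Prr5l were called, beside 0.155% of all genes called higher. Prr5l had 0 to 3 UMIs in WT and 17, 7, 0 and 34 in Chd8het.

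Over 9 Vip-type markers the sums were 153, 460.0, 428 and 190.3 CPM in WT and 154, 253, 236 and 148 CPM in Chd8het, with WT male 2 and WT female 1 the highest. Adarb2 had 151 UMIs in WT male 2, of which 142 were in 1 nucleus, and 175 UMIs in WT female 1, of which 169 were in 1 nucleus. Htr3a was at 0 in 7 of 8 libraries and Sncg in 8. Over 8 astrocyte markers the sums were 146 to 344 CPM in WT and 204 to 461 CPM in Chd8het. Across all 8 libraries, microglial markers summed to 132 to 188 CPM, oligodendrocyte precursor markers to 5.47 to 48.4 CPM and vascular markers to 1.98 to 16.2 CPM.

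**Figure D3:**
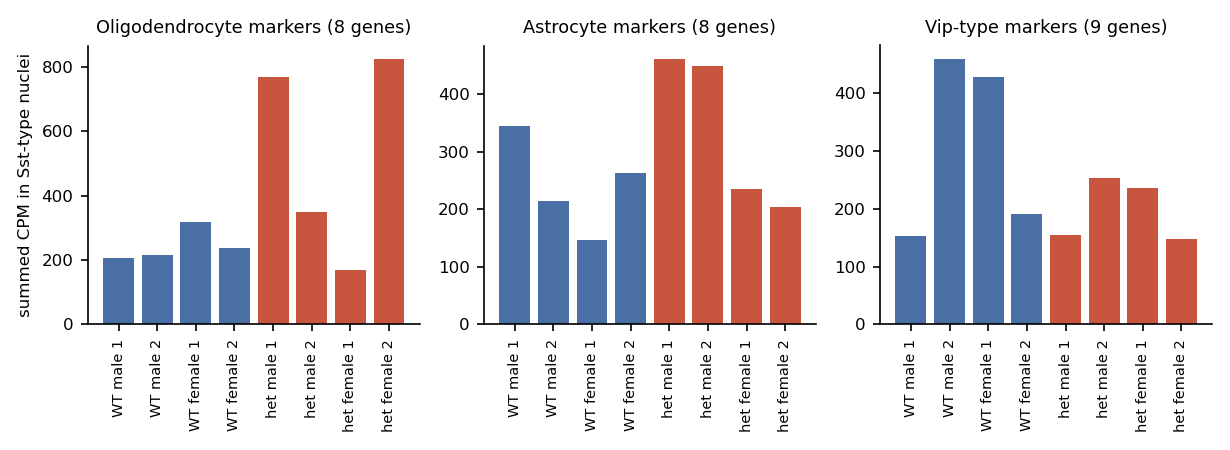
Summed CPM of 3 lists of markers of other cell types in Sst-type nuclei, 1 bar per library ("het" stands for Chd8het). Oligodendrocyte markers reach 770 and 826 CPM in 2 Chd8het libraries, and Vip-type markers 460 and 428 CPM in 2 WT libraries.

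A further step used 6 lists, those of oligodendrocytes, their precursors, astrocytes, microglia, vascular and Vip-type cells. The excitatory, striatal, Pvalb-type and Lamp5-type lists were not used. Over 10 excitatory markers, 5, 2, 7 and 7 nuclei in WT and 16, 14, 9 and 5 in Chd8het held at least 10 UMIs. Such nuclei stayed in unless another list removed them, and their part in the calls was not tested. Leaving out nuclei with at least 10 UMIs over any of the 6 lists removed 15 nuclei in WT and 26 in Chd8het (5.64% and 10.6%), called marker-rich nuclei below. The block then called 11 of 7881 genes (0.14%), 8 higher (0.102%; Pard3b, Erbb4, Lrp1b, Kcnh7, Ntng1, Tafa1, Ptprk, Htr2c) and 3 lower (0.0381%; Gm48749, Gm26854, Pde10a), and 7 of the 11 were among the 17. Mobp and Adarb2 are in those lists, so their own UMIs helped to choose the nuclei left out. The log2 change of Mobp went from 1.72 (SE 0.29, adjusted p 0.00541) to 0.28 (adjusted p 0.990), by edgeR quasi-likelihood. Dock10, a guanine exchange factor, went from 1.05 (SE 0.22, adjusted p 0.0315) to 0.23 (adjusted p 0.987). Adarb2 went from -1.70 (SE 0.17, adjusted p 8.76e-07) to 0.24 (adjusted p 0.990). St18, Cdh19, Prr5l and Gab1 no longer passed the count filter. The model of sex and genotype called 0 genes here as well, with 271 at an unadjusted p under 0.05.

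**Figure D4:**
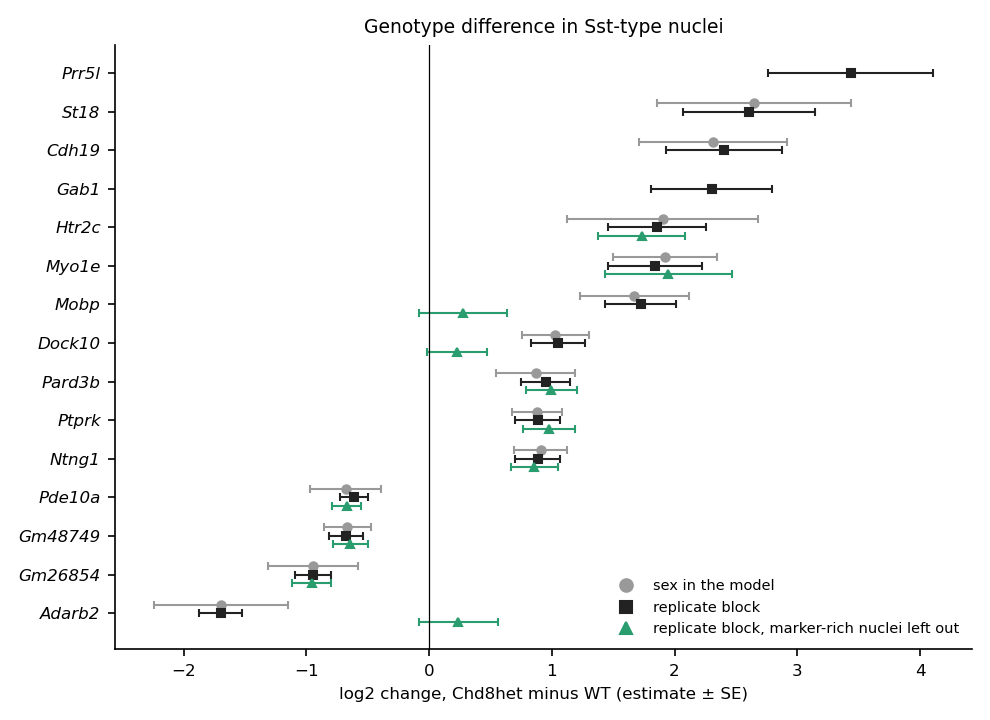
Log2 change (Chd8het minus WT, estimate ± SE) of the 15 genes with the smallest p among those called with the replicate block, in the model of sex (grey), with the block (black) and with the block after leaving out marker-rich nuclei (green). No symbol is drawn where a gene did not pass the count filter. Mobp, Dock10 and Adarb2 move to between 0.23 and 0.28 without those nuclei, while Gm26854, Pde10a, Gm48749, Ptprk, Ntng1, Pard3b and Htr2c were still called.

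Of the genes lower with the block, the noncoding Gm26854 (chromosome 15, 41758060 to 41788911) was at 106, 228, 135 and 373 CPM in WT and 56.8, 114, 60.2 and 217 CPM in Chd8het. It was lower in 4 of 4 pairs, while the groups overlapped, since the dual-indexed library of each sex and genotype was the higher. Its log2 change with the block was -0.95 (SE 0.15, adjusted p 0.00181), and -0.96 (adjusted p 6.96e-04) without marker-rich nuclei, by edgeR quasi-likelihood. With index type in the model its adjusted p was 0.0214. In the model of sex it ranged from -1.41 (without Chd8het female 2) to -0.569 (without WT female 2). Gm26854 is annotated antisense to Oxr1, and the counting strand is not given in the sources used here, so reads of the 2 genes may be mixed. In the model of sex the log2 change of Gm26854 was -0.35 (SE 0.29) in the other MGE-gate nuclei. It was at 85.7, 147, 103 and 183 CPM there in WT and 81.0, 101, 68.3 and 166 CPM in Chd8het, again lower in 4 of 4 pairs. In excitatory nuclei 1 of 4 pairs was higher in Chd8het.

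Pde10a, a phosphodiesterase best known from striatal neurons (chromosome 17, 8525372 to 8986648), was at 1011, 2342, 902 and 2134 CPM in WT and 798, 1630.5, 669 and 1009.6 CPM in Chd8het. It was lower in 4 of 4 pairs, with mean differences of -223 CPM for single indexes and -918 CPM for dual indexes. Its log2 change with the block was -0.61 (SE 0.12, adjusted p 0.0257), and -0.67 (adjusted p 0.00298) without marker-rich nuclei (edgeR quasi-likelihood). In the model of sex its log2 change was -0.68 (SE 0.29) in Sst-type nuclei, -0.27 (SE 0.25) in the other MGE-gate nuclei, -0.52 (SE 0.45) in excitatory and -0.56 (SE 0.40) in Vip-type nuclei, and all 4 pairs showed this direction in every one of those kinds. With 1 library left out the change in Sst-type nuclei ranged from -0.951 (without Chd8het male 2) to -0.340 (without WT female 2). Gm26854 and Pde10a were both called for index type as well, with log2 differences of 1.37 and 1.05 (dual minus single, adjusted p 1.88e-05 and 1.88e-05, edgeR). Over 8 striatal markers Sst-type nuclei summed to 119 to 138 CPM in WT and 114 to 123 CPM in Chd8het, with Adora2a and Ppp1r1b each at 0 in 7 of 8 libraries.

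Gm48749, a lincRNA (chromosome 10, 9336682 to 9395259), was at 324, 349.6, 215 and 299.6 CPM in WT and 198, 176, 131 and 249 CPM in Chd8het. It was lower in 4 of 4 pairs, with mean differences of -105 CPM for single indexes and -112 CPM for dual indexes. The log2 change with the block was -0.68 (SE 0.14, adjusted p 0.0315), and -0.64 (adjusted p 0.0425) without marker-rich nuclei (edgeR quasi-likelihood). It lost the call without male 1, male 2 or female 1, and also with doublets removed, the stricter nucleus filter or at least 5 Sst UMIs, while its log2 change stayed between -0.928 and -0.536 over 31 settings. Its log2 change in the other MGE-gate nuclei was -0.29 (SE 0.17), and 1 of 4 pairs was higher in Chd8het there.

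Among genes higher with the block, Ptprk, a receptor tyrosine phosphatase of homophilic adhesion (chromosome 10, 28074820 to 28597397), was at 68.8, 39.1, 76.5 and 63.1 CPM in WT and 141, 129.6, 92.9 and 105 CPM in Chd8het. Every Chd8het library was above every WT library, as for 126 of 7794 genes (1.62%) in that direction. The log2 change was 0.88 (SE 0.20, adjusted p 0.771) in the model of sex, 0.89 (SE 0.18, adjusted p 0.0315) with the block and 0.98 (adjusted p 0.0318) without marker-rich nuclei, by edgeR quasi-likelihood. Over 31 settings the change ranged from 0.351 to 1.08. The 2 richest nuclei of a library held 23.5% to 55.4% of its Ptprk UMIs. Its log2 change was 0.31 (SE 0.25) in the other MGE-gate nuclei. In excitatory nuclei Ptprk was at 443 to 566 CPM, above every Sst-type library. Its log2 change there was -0.15 (SE 0.08), with 1 pair higher in Chd8het and the rest lower. The part of Sst-type nuclei with at least 10 UMIs of excitatory markers in the Ptprk difference was not tested.

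Ntng1 encodes netrin-G1, a membrane-anchored synaptic adhesion protein (chromosome 3, 109780040 to 110144011). It was at 45.4, 52.9, 71.1 and 47.3 CPM in WT and 81.2, 139, 89.4 and 98.8 CPM in Chd8het, again without overlap. Its log2 change was 0.91 (SE 0.22, adjusted p 0.771) in the model of sex and 0.88 (SE 0.18, adjusted p 0.0315) with the block (edgeR quasi-likelihood). Over 30 settings the change ranged from 0.424 to 1.08. It was 0.04 (SE 0.11) in the other MGE-gate nuclei, 0.28 (SE 0.12) in excitatory and 0.88 (SE 0.35) in Vip-type nuclei in the model of sex. The difference between Sst-type and the other MGE-gate nuclei was 0.89 with an adjusted p of 0.355 (edgeR, interaction of kind and genotype).

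Pard3b, a polarity protein, was at 61.0, 71.3, 14.6 and 92.3 CPM in WT and 97.4, 119, 89.4 and 152 CPM in Chd8het, higher in 4 of 4 pairs although the groups overlapped. Its log2 change with the block was 0.95 (SE 0.20, adjusted p 0.0315), and 1.00 (adjusted p 0.0250) without marker-rich nuclei (edgeR). The call was lost without any 1 of the 4 pairs, with doublets removed, with at least 5 Sst UMIs and with the stricter nucleus filter. With 1 library left out of the model of sex the change ranged from 0.542 (without WT female 1) to 1.31 (without WT female 2). In the other MGE-gate nuclei its log2 change was 0.44 (SE 0.30). Chd8het male 2 was the highest library there, at 74.8 CPM of Pard3b against 25.7 to 56.4 CPM. It was also the highest in excitatory nuclei, at 21.9 CPM against 6.87 to 8.54 CPM. Htr2c, the serotonin 2C receptor, was at 1.56, 32.2, 49.2 and 4.50 CPM in WT and 51.4, 292, 29.2 and 9.88 CPM in Chd8het. It was higher in 3 of 4 pairs, and Chd8het male 2 held 187 UMIs of it in 15 of 61 nuclei. With the block its log2 change was 1.86 (SE 0.40, adjusted p 0.0387), and 1.73 (adjusted p 0.0204) without marker-rich nuclei (edgeR). In the model of sex it was 1.90 (SE 0.78), and with 1 library left out it ranged from 0.702 (without Chd8het male 2) to 3.24 (without WT female 1). The other MGE-gate nuclei gave 0.46 (SE 0.31). There too Chd8het male 2 was the highest library, at 119 CPM of Htr2c against 33.7 to 61.0 CPM.

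Shld1 and Myo1e had few UMIs, under 10 in 3 and 4 of 4 WT libraries. Both passed the count filter through Chd8het libraries alone, so their values are given as a description and are no support. Shld1, a shieldin subunit of DNA end repair, was at 7.82, 9.20, 7.29 and 12.4 CPM in WT and 33.8, 21.9, 27.5 and 29.6 CPM in Chd8het, from 4 to 25 UMIs per library. Its log2 change with the block was 1.59 (SE 0.35, adjusted p 0.0408), and 1.73 (adjusted p 0.0558) without marker-rich nuclei (edgeR). Myo1e, a class I myosin, was at 6.26, 6.90, 7.29 and 10.1 CPM in WT and 39.2, 25.0, 44.7 and 11.9 CPM in Chd8het. In Chd8het female 2 its 6 UMIs all came from 1 nucleus. The log2 change with the block was 1.84 (SE 0.38, adjusted p 0.0315), and 1.95 (adjusted p 0.167) without marker-rich nuclei (edgeR). Myo1e was at 113 to 159 CPM in the other MGE-gate nuclei, where its log2 change was 0.04 (SE 0.11).

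**Figure D5:**
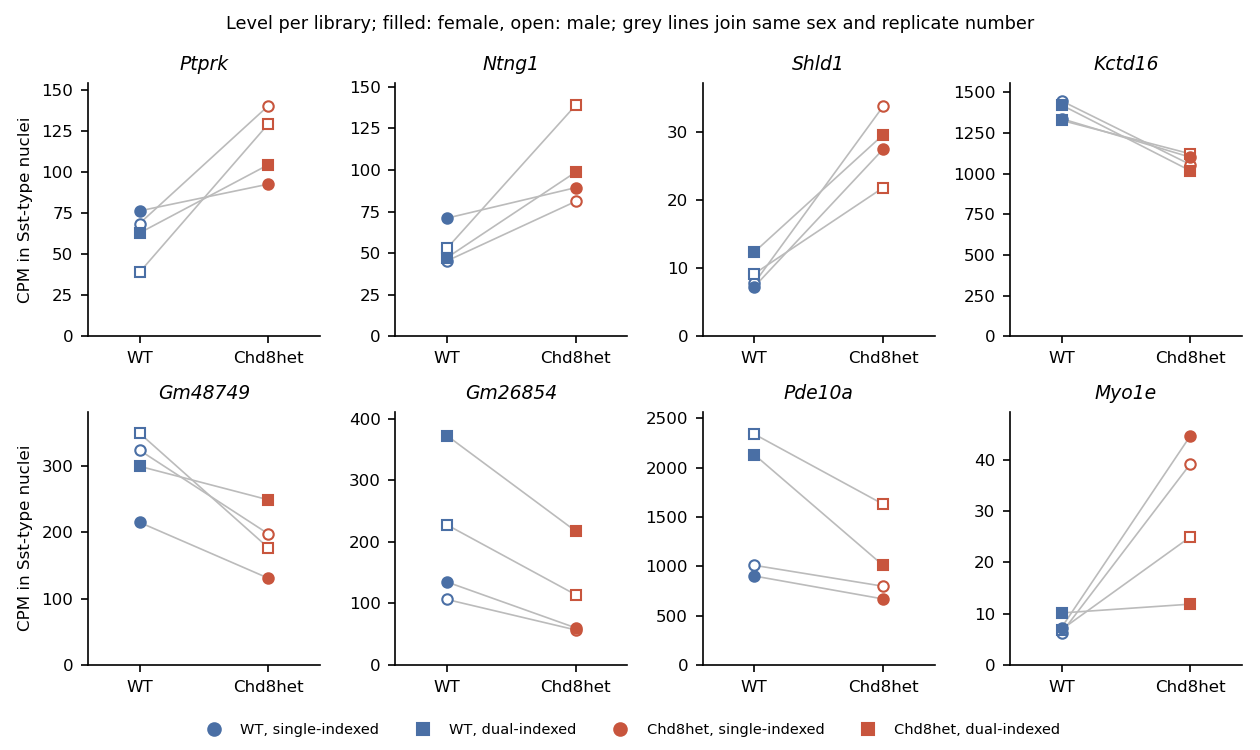
CPM of 8 genes in Sst-type nuclei by library (open male, filled female, circles single-indexed, squares dual-indexed), with lines joining libraries that share sex and replicate number. Ptprk, Ntng1, Shld1 and Myo1e are higher and Kctd16 lower in Chd8het without overlap, and Gm48749, Gm26854 and Pde10a are lower in 4 of 4 pairs. Shld1 and Myo1e passed the count filter through Chd8het libraries alone.

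Other genes with small p in the model of sex were called neither there nor with the block. Cdh20, a classical cadherin, was at 23.7 to 37.2 CPM in WT and 47.4 to 72.2 CPM in Chd8het (log2 change 1.02 (SE 0.23), adjusted p 0.0579 with the block, edgeR), and was called with the block at a gate of at least 5 Sst UMIs. Kctd16, an auxiliary subunit of GABA-B receptors, was at 1447, 1327, 1338 and 1421 CPM in WT and 1055, 1121, 1101 and 1018 CPM in Chd8het. These groups did not overlap, as for 79 of 7794 genes (1.01%) in the lower direction, and the log2 change was -0.38 (SE 0.11) (adjusted p 0.208 with the block, edgeR). Nipa2, a magnesium transporter, was at 51.0 to 66.7 CPM in WT and 28.1 to 41.5 CPM in Chd8het (log2 change -0.69 (SE 0.22)). The noncoding 1700003G18Rik was at 20.3 to 34.5 CPM in WT and 9.37 to 12.2 CPM in Chd8het (log2 change -1.13 (SE 0.34)). It had 13, 15, 15 and 18 UMIs in WT and 9, 6, 7 and 6 in Chd8het. It passed the count filter through WT libraries alone, so its values are a description and no support.

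Ifnar1 and Ifnar2 encode the subunits of the type I interferon receptor and lie near each other on chromosome 16. Ifnar1 (91485238 to 91507441) was at 25.0, 20.7, 23.7 and 24.8 CPM in WT and 10.8, 7.81, 13.8 and 11.9 CPM in Chd8het. Ifnar2 (91372783 to 91405589) was at 15.6, 4.600, 12.8 and 9.01 CPM in WT and 24.4, 17.2, 32.7 and 29.6 CPM in Chd8het. Neither gene overlapped between genotypes, in opposite directions, and neither was called. The log2 changes were -1.10 (SE 0.32) and 1.25 (SE 0.36), with adjusted p 0.402 and 0.208 with the block (edgeR). Ifnar1 had 16, 9, 13 and 22 UMIs in WT and 8, 5, 8 and 6 in Chd8het. Ifnar2 had 10, 2, 7 and 8 UMIs in WT and 18, 11, 19 and 15 in Chd8het. Each passed the count filter through the genotype where it was high alone, so these values are a description and no support. Ifnar2 was named after its values had been seen.

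An earlier look at these data had named Gm44129, Thsd7a, Gm26854, Nr4a2, 5330434G04Rik and Maml3 for genotype, so these genes are no independent evidence. Gm44129, a lincRNA, was at 113, 127, 38.3 and 77.7 CPM in WT and 36.5, 111, 18.9 and 43.5 CPM in Chd8het, lower in 4 of 4 pairs (log2 change -0.84 (SE 0.32), adjusted p 0.0806 with the block, edgeR). With 1 library left out of the model of sex its change ranged from -1.31 to -0.541. Thsd7a, which overlaps Gm44129 on the opposite strand, was at 774 to 1203 CPM in WT and 621 to 828 CPM in Chd8het and also lower in 4 of 4 pairs (log2 change -0.40 (SE 0.14), adjusted p 0.289 with the block, edgeR). Maml3, a Notch coactivator, was at 105, 235, 106 and 346 CPM in WT and 89.3, 133, 98.0 and 121 CPM in Chd8het, lower in 4 of 4 pairs (adjusted p 0.0789 with the block, edgeR). 5330434G04Rik was at 301 to 451 CPM in WT and 316 to 380.1 CPM in Chd8het, and Nr4a2, at 1.56 to 4.50 CPM in WT and 1.35 to 8.60 CPM in Chd8het, did not pass the count filter.

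The gene lists held 0 calls in the model of sex and genotype. Of 19 tested identity genes, 1 (Cdh7, a cadherin) had an unadjusted p under 0.05 (4.18% of all genes), and the median log2 change was -0.12 against 0.0025 for all genes. With the block, 4 of 20 had an unadjusted p under 0.05, all lower (Sst, Penk, Rbp4 and Cdh7), beside 560 of all 8361 genes (6.7%; 298 higher, 3.56%, and 262 lower, 3.13%), and 0 were called. The list's median was then -0.11. Penk and Rbp4 were named after their values had been seen. Penk was at 17.2, 4.60, 18.2 and 7.88 CPM in WT and 8.12, 0, 8.60 and 3.95 CPM in Chd8het. It passed the count filter through WT libraries alone, so its p is no support. For Sst the log2 change was -0.32 (SE 0.22) in the model of sex, from -0.518 (without WT male 2) to -0.0508 (without WT male 1) with 1 library left out, and the gate bounds it from below at 3 UMIs per nucleus, so its p is no evidence. Grin3a had 0.04 (SE 0.14) and Satb1 0.08 (SE 0.16). Among 9 tested GABA handling genes, Gad2, a GABA synthase that the gate used and for which the test is therefore no evidence, was at 285 to 343 CPM in WT and 227 to 286 CPM in Chd8het (-0.29 (SE 0.13)). Of those outside the gate, 1 had an unadjusted p under 0.05. It was Slc38a1, a glutamine carrier, at 82.0 to 115 CPM in WT and 63.2 to 89.0 CPM in Chd8het (-0.41 (SE 0.16)).

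Of 24 tested glutamate receptor genes, 2 had an unadjusted p under 0.05, as did 4.18% of all genes. Gria3, an AMPA receptor subunit, was at 1377, 1081, 1152 and 1256 CPM in WT and 1029.5, 919.9, 1073 and 891 CPM in Chd8het, without overlap (log2 change -0.33 (SE 0.13), adjusted p 0.456 with the block, edgeR). Grik4, a kainate receptor subunit, was at 42.2 to 75.9 CPM in WT and 63.6 to 142 CPM in Chd8het (0.57 (SE 0.25), and 0.28 without Chd8het male 2). Of 23 tested potassium and HCN channel genes, 0 were called. Kcnh7, an ERG potassium channel, was at 205 to 508 CPM in WT and 399 to 589.9 CPM in Chd8het, and its log2 change was 0.49 (SE 0.14, adjusted p 0.297) with the block and 0.71 (adjusted p 0.0230) without marker-rich nuclei (edgeR). With 1 library left out of the model of sex the change ranged from 0.307 to 0.657. Kcnh7 was at 1597 to 2253 CPM in the other MGE-gate nuclei, where 2 of 4 pairs were higher in Chd8het. In excitatory nuclei it was at 2073 to 2993 CPM, where 4 of 4 pairs were higher. Of 13 GABA receptor, 22 sodium and calcium channel, 29 synapse organiser and 13 peptide processing genes tested, 0 had an unadjusted p under 0.05. Over the lists of GABA handling, receptors, channels, synapse organisers and peptide processing together, 6 genes higher and 9 lower of 140 had such a p with the block, where all genes gave 3.56% and 3.13%, and 0 were called. The gate gene Gad2 is among the 9 and is no evidence.

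Of 56 autism-associated genes tested, 1 had an unadjusted p under 0.05 (4.18% of all genes did), and the median log2 change was -0.01. It was Dnmt3a, a DNA methyltransferase, at 117, 145, 137 and 146 CPM in WT and 183, 170.2, 191 and 168 CPM in Chd8het, without overlap and not called (0.38 (SE 0.14)). Of 8 remodellers of the CHD family tested, 0 had one. Ribosomal protein genes had a median log2 change of 0.23 over 62 tested, 44 of them above 0, and 2 (Rplp1 and Rpl19) had an unadjusted p under 0.05, against the same 4.18%. Of all 7794 genes tested, 3934 were above 0, with a median of 0.0025. In all kept nuclei Rplp1 and Rpl19 were each higher in Chd8het in 3 of 4 pairs. Chd8het male 1 was the highest library for both genes there, as in Sst-type nuclei. Oxidative phosphorylation genes had a median of 0.07 over 60 tested, with 0 at an unadjusted p under 0.05.

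Erbb4, the neuregulin receptor of many interneurons and a Pvalb-type marker here, was at 926, 1244, 705 and 1329 CPM in WT and 2256, 1101, 1668 and 1630.1 CPM in Chd8het, higher in 3 of 4 pairs. The log2 change was 0.65 (SE 0.16, adjusted p 0.103) with the block and 0.84 (adjusted p 0.00298) without marker-rich nuclei (edgeR). With 1 library left out of the model of sex the change ranged from 0.413 to 0.849. The mean difference was 1147 CPM for single and 78.9 CPM for dual indexes, and the 2 richest nuclei of a library held 22.6% to 40.1% of its Erbb4 UMIs. In the other MGE-gate nuclei its log2 change was -0.05 (SE 0.06). Lrp1b, a giant lipoprotein receptor named after its values had been seen, was at 795, 1060.3, 1135 and 1270.3 CPM in WT and 1830.3, 1431, 1339.7 and 1488 CPM in Chd8het, without overlap. Its log2 change was 0.51 (SE 0.13, adjusted p 0.129) with the block and 0.60 (adjusted p 0.0425) without marker-rich nuclei (edgeR). Lrp1b was at 2648 to 3125.5 CPM in the other MGE-gate nuclei, where 1 of 4 pairs was higher in Chd8het. In excitatory nuclei it was at 2578 to 2817 CPM, where 3 of 4 pairs were higher. Over 12 Pvalb-type markers Sst-type nuclei summed to 3458 to 5402 CPM in WT and 4490.1 to 5537 CPM in Chd8het, with 10 to 12 markers detected and Pthlh at 0 in 7 of 8 libraries. Of 9 of them tested, Erbb4 was the 1 with an unadjusted p under 0.05 (4.18% of all genes). The part of such nuclei in these differences was not tested.

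Further tests asked whether the genotype difference itself depended on the kind of nucleus or on sex. Against Pvalb-type nuclei of the same libraries, 0 of 5662 genes (0.0%) were called for the interaction, and 236 (4.17%) had an unadjusted p under 0.05 (edgeR quasi-likelihood). The Pvalb-type sums rest on 1 to 13 nuclei per library, 63 in all, so these 0 calls cannot show that the difference is alike in both kinds. Against the other MGE-gate nuclei, 0 of 12451 (0.0%) were called and 606 (4.87%) had an unadjusted p under 0.05. The smallest adjusted p among the named genes was 0.179, for Myo1e and Cdh20. Sex by genotype gave 0 calls of 8361 (0.0%), with 188 (2.25%) at an unadjusted p under 0.05. In the other MGE-gate nuclei the block called 25 of 14189 genes (0.176%), of which Dock10 and Cdh19 were shared with the 17, and among the rest were the astrocyte genes Slc1a2, Slc1a3 and Gja1 and the haemoglobin genes Hbb-bt, Hbb-bs, Hba-a1 and Hba-a2. These tests share libraries with those above.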

How the data were processed

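Single-nucleus 3′ RNA-seq (10x Genomics v3) of 8 cortices was used. The values are the deposited UMI counts per gene and barcode, which the authors made with STAR 2.7.9a, STARsolo and Cell Ranger on mm10, per the submitters' processing notes; which tool made which step, and any strand setting, is not given in the sources used here. Of 32285 gene IDs, 32158 matched GENCODE M21 (GRCm38).

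The nuclei were gated as the report states, and their counts were summed per library, since nuclei are not replicates. Genotype was tested with edgeR 4.0.16 (quasi-likelihood, TMM, filterByExpr with a minimum count of 10, Benjamini-Hochberg adjustment, limma 3.58.1, R 4.3.3) in a model of sex and genotype. Alternatives were a replicate block, index type, no sex term, DESeq2 1.42.0, no count filter, other gates, thinning, Scrublet doublets (scanpy 1.11.5, Python 3.11.15) and leaving out libraries. Scrublet marked 3.44% to 7.14% of kept nuclei per library and 26 of the 511 Sst-type nuclei, which stayed in unless stated. Shares were compared by exact permutation, for which 4 against 4 libraries allow a smallest two-sided p of 0.0286. SEs of log2 changes were derived from the F statistics. On simulated counts for 7794 genes, the model of sex and genotype recovered 62 of 87 genes changed by 1 on the log2 scale and 100 of 100 changed by 2, with 5 false calls. Changed genes that did not pass the count filter again are left out of these totals. The counts were drawn independently for each library, without the pair and index structure of the data, so recovery in the real data was not measured. Intervals and tests cover the spread between these libraries, each from 1 animal.

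The labels state litter pairs but not which libraries form one. Libraries that share sex and replicate number deviated together (correlation across genes of deviations from the group means 0.184 to 0.262 in the 4 pairs, 0.0283 to 0.0714 for the same index type and the other sex, -0.245 to 0.00284 for the other index type). Litter and index type cannot be told apart here.

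Genes named for genotype were Chd8, up to 15 by p among those called with the block, the 5 with the smallest p in each direction among those with 1 direction in 4 of 4 pairs and at least 10 CPM, genes of an earlier look at these data, and list genes with an unadjusted p under 0.05. Shld1 was named by its p in the model of sex, and Sec14l5, Lrp1b, Tafa1, Ifnar2, Penk and Rbp4 were named after their values were seen. Some genes that these rules name are not reported here. For levels they were the identity list and the genes furthest from the other nuclei by median log2 (CPM + 1) with at least 50 CPM in each library. The members, lists and tests were chosen with earlier results of these data known.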

Additional observations from a re-analysis of the deposited data

Results flagged for a closer look

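In groups of 4 libraries, 6 of 114 checks (57 quantities, 2 genotypes each) had a library set apart from the other 3 by more than Dixon's 95% limit; chance flags about 1 in 20. Chd8het male 2 had 292.05 CPM of Htr2c against 9.88 to 51.4 CPM in the other Chd8het libraries. This library was the highest of all 8 for Htr2c in excitatory nuclei as well (62.3 CPM against 16.1 to 36.5 CPM), but not in Vip-type nuclei. It also had 142.12 CPM of Grik4 against 63.6 to 73.1 CPM, and 9.3707 CPM of 1700003G18Rik against 11.9 to 12.2 CPM. WT male 2 had 98.904 CPM of Tshz2 against 31.5 to 42.2 CPM in the other WT libraries, with 24 of its 43 Tshz2 UMIs in 1 nucleus. WT male 1 had 35.981 CPM of Cck against 23.7 to 25.3 CPM. WT female 1 had 20.044 CPM of Mog against 1.56 to 2.30 CPM, and was the WT library with the highest sum over oligodendrocyte markers.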

How the results depend on the processing

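Where the model of sex and genotype called 0 genes, the replicate block called 17, a model with index type 1, and a fit with no count filter 29. Leaving out 1 library gave 0 to 4 calls, the 4 (Mobp, St18, Prr5l and Pde4b) without Chd8het female 1. Choices made after seeing the data, each with the replicate block, gave 11 calls without marker-rich nuclei, 7 without oligodendrocyte-rich nuclei, 8 with at least 5 Sst UMIs, 3 with the stricter nucleus filter, 2 with doublets removed, 1 with DESeq2 (Adarb2), 0 with thinning to 2000 UMIs, and 2 to 24 with 1 pair left out. The cause of these changes was not tested, except that fewer nuclei or libraries entered most of them. The Sst-type against Pvalb-type interaction gave 0 to 2 calls with 1 library left out, and sex by genotype 2 with no count filter.

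The difference in share of kept nuclei was -0.135 to -0.0370 percentage points with 1 library left out, and that of the MGE gate -2.28 to -0.0865. With the replicate block (paired sign flips) the 2 shares gave exact p 0.625 and 0.5.

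Over 44 named genes and 31 settings, 1198 of 1304 log2 changes kept their direction and side of the threshold, 88 passed it in a setting, and 18 reversed, with 39 genes never reversed. With 1 library left out, Chd8 ranged from -0.193 to 0.0153 (without WT female 2), Grin3a from -0.0511 to 0.154 and Satb1 from -0.0238 to 0.239. Adarb2 turned to 0.248 without marker-rich nuclei and 0.239 with the block as well. Mbp turned to -0.338 with doublets removed, -0.284 without marker-rich and -0.211 without oligodendrocyte-rich nuclei, and with the block to -0.329, -0.289 and -0.205 in that order. Grin3a, near 0 throughout, turned to -0.00755 with at least 5 Sst UMIs, -0.0217 with thinning, -0.0511 without WT female 2 and -0.0488 without Chd8het female 2, and with the block to -0.00904, -0.0337 and, without the pair female 2, -0.112. Satb1 turned to -0.0238 without WT male 1, and to -0.0431 with the block without male 1.

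Subtype shares, as Chd8het minus WT in percentage points, turned for Crhr2 to -0.287 with thinning. With 1 library left out they ranged from -0.958 to 2.87 for Hpse, from -0.255 to 0.350 for Calb2 and from -0.287 to 0.379 for Th. The interaction with at least 5 UMIs of Sst and of Pvalb was not run, since 4 Pvalb-type nuclei remained. The counts rest on 42 to 87 nuclei per library, and thinning to 2000 UMIs before the gate left 38 Sst-type nuclei in all.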
